A study of Mus musculus with 20 samples.

Results

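The comparison described here sets 1 week of a glycation-lowering diet, called Gly-Low, against 1 week of control diet, in hypothalamus from C57BL/6J males aged 4 months. Its members were chosen by their labels and are 9 of the 20 libraries of the series, 5 acute control and 4 acute Gly-Low libraries. Strain, sex, age, tissue and time on the diet are shared by both groups, so diet is the labelled difference between them. C57BL/6J is an inbred laboratory strain, and what the diet contains is not stated in the labels. The other libraries are 4 young controls aged 3 months after 1 week of control diet and, at 25 months of age and after 5 months of their diets, 4 old controls and 3 old Gly-Low libraries. They serve here only for levels and for fits said to use all 20 libraries. Poly-A RNA of flash-frozen tissue was read with libraries that keep no strand. The labels do not say whether a library is a single animal, so p-values measure the spread between these libraries, which may be technical. The acute comparison asks which genes and pathways change after a short treatment in young mice.

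Glycation is the attachment of sugars and reactive aldehydes to proteins and other molecules. Methylglyoxal, a by-product of glycolysis, is a main source and is cleared by the glyoxalase system with glutathione. The hypothalamus holds the neurons that govern feeding: arcuate neurons with Agrp and Npy drive feeding, those with Pomc and Cartpt restrain it, and neurons of the lateral area make melanin-concentrating hormone (Pmch) and orexin (Hcrt). The question here is which genes differed beyond the tendency of short transcripts to be higher and long transcripts to be lower in the Gly-Low libraries.

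The 9 libraries held 19434761 to 26382533 counts. Several measures of the whole library moved with the diet groups, and their part in the gene results below was not tested. The slope of a library's log2 deviation on log2 transcript length ran from 0.134 to 0.227 in the controls and from -0.434 to -0.226 in the Gly-Low libraries. The mitochondrial genome took 5.35 to 9.11% of counts in the controls and 17.0 to 23.3% in the Gly-Low libraries, and ribosomal protein genes took 1.84 to 2.27% against 5.14 to 8.41%. Because neither slope nor mitochondrial share overlapped, diet and length slope cannot be told apart within these 9 libraries. Such libraries also occurred without the diet: young control 2 had a slope of -0.269 and a mitochondrial share of 17.2%, and old control 3 had a slope of -0.195 and a share of 15.8%. Hypothalamic genes such as Pmch, Hcrt, Oxt, Avp, Trh and Otp were present in all 9 libraries, at levels that differed. Without regard to length, Nkx2-1 measured 5.3 to 14.2 CPM (the count scaled to library size) in the controls and 1.15 to 3.52 in the Gly-Low libraries. Nr5a1 measured 4.08 to 11.9 against 0.729 to 2.42 CPM, and Otp 6.19 to 14.2 against 4.83 to 5.97 CPM. On that scale Agrp, Pmch, Oxt and Trh were higher in the Gly-Low libraries without overlap, while Pomc, Hcrt, Avp and Sim1 overlapped. Pituitary genes were not confined to a low level: 18 of them summed to 65900 CPM in acute control 2, 33600 in control 5 and 4900 in control 3, against 201 and 999 in controls 1 and 4 and 286 to 532 in the Gly-Low libraries. Results were therefore also computed without controls 2, 3 and 5, and the value is given where that ended a call in all 6 fits described below or moved a group's larger count by over 1.5 times.

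Without regard to length, 10005 of 17161 genes tested passed an adjusted p of 0.05 (58.3%), with 4774 higher (27.8%) and 5231 lower (30.5%) in the Gly-Low libraries. Over 5 equal classes of genes by transcript length, the median log2 difference went from 1.03 in the shortest to 0.26, -0.13, -0.42 and -0.80 in the longest. A length-matched fit then compared each gene with genes of its own length, by taking the trend over length out of every library. In that fit 8176 of 17152 genes passed (47.7%), and 4089 rose and 4087 fell (23.8% each); 6219 genes passed in both fits in the same direction and 162 in opposite directions. Across genes the rank correlation of the difference with length was -0.56 before and 0.005 after matching, while that of the length-matched difference with GC content was -0.39. In bulk tissue, fewer cells of a type and less RNA per cell cannot be told apart, here or below.

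**Figure D1:**
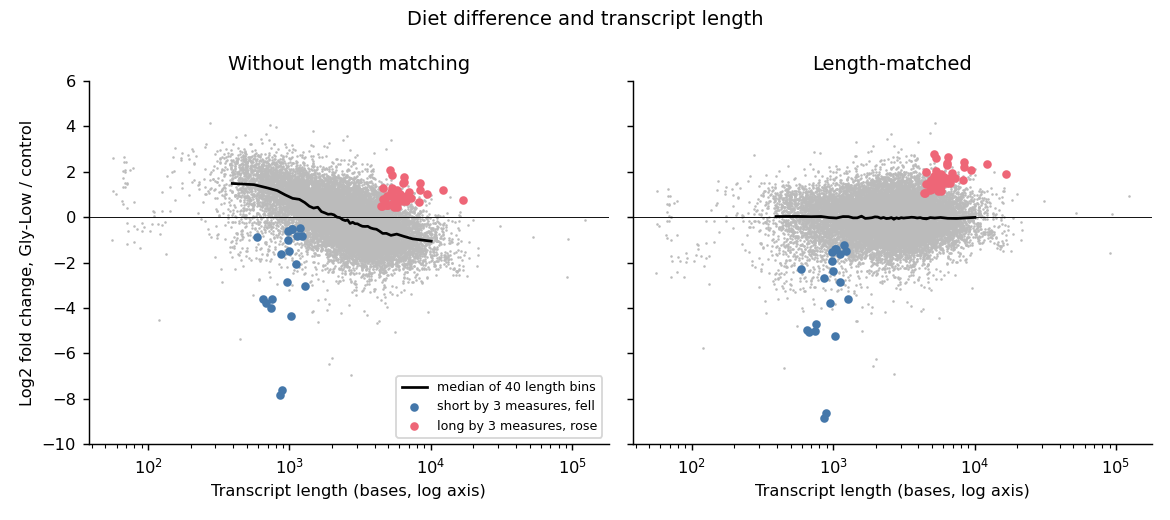
Each grey point is a gene, with its transcript length in bases on a log axis and its log2 difference between Gly-Low and control on the vertical axis, without matching on the left and length-matched on the right; the black line joins the medians of 40 length bins. Blue points are 20 genes that are short by 3 length measures and fell, and red points are 39 that are long by 3 measures and rose, against a trend whose 5 length classes have medians from 1.03 to -0.80.

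A stricter call asked for the same direction in 6 fits that take length into account. They used the median, the longest, the merged or the coding length of a gene, length together with GC content, and, in a fit on all 20 libraries, every library's own slope on length as a term (the slope fit). In all 6 fits, 1285 of 17152 genes passed (7.49%), of which 590 rose (3.44%) and 695 fell (4.05%). Below, "rose" and "fell" mean an adjusted p under 0.05 in the length-matched fit, and a gene called in all 6 fits is named as such. The slope fit alone called 3789 of 19061 genes, and its median over the genes of this comparison was 0.16, above the -0.02 of the length-matched fit, so its differences read as relative to that shift. For 6332 genes (36.9%) the libraries of the groups did not overlap after the length trend was taken out.

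**Figure D2:**
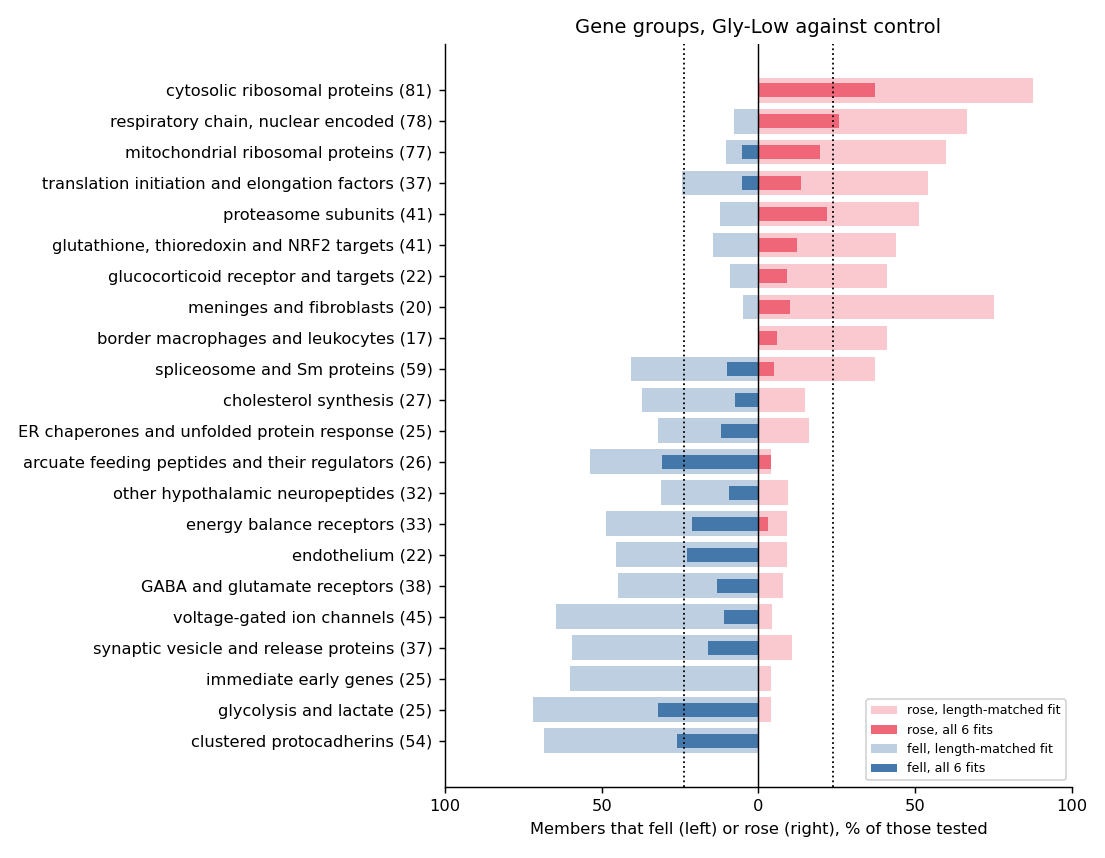
Bars give the percentage of tested members of each gene group that fell (left, blue) or rose (right, red) in Gly-Low against control, pale in the length-matched fit and dark in all 6 fits, with the number tested in brackets. The dotted lines mark the 23.8% of all genes that rose and the 23.8% that fell in the length-matched fit. The groups drawn leave out the mitochondrial genome and the pituitary. Among their pale bars, ribosomal proteins stand farthest to the right, and glycolysis and the clustered protocadherins farthest to the left.

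Agrp, the peptide that blocks melanocortin receptors and drives feeding, was higher in the Gly-Low libraries, while Mc3r, Npy2r and Pam, which receive or process feeding peptides, were lower. Agrp (ENSMUSG00000005705, chromosome 8, 105566698 to 105637393, GRCm38) measured 9.42, 6.36, 11.2, 9.71 and 9.57 CPM in acute controls 1 to 5 and 71.3, 25.7, 53.4 and 47.7 CPM in Gly-Low 1 to 4. With the length trend removed, the level was 7.97 to 14.4 CPM in the controls and 15.8 to 36.6 CPM in the Gly-Low libraries, so the groups did not overlap, with Gly-Low 2 closest to the controls. The length-matched log2 difference was 1.21 ± 0.23 (SE, adjusted p = 0.000617), and Agrp was called in all 6 fits, also without controls 2, 3 and 5. Of the 200 protein-coding genes nearest in length, 192 had a smaller unmatched difference than its 2.46. The young controls, on control diet, lay at 27.1 to 31.8 CPM on the length-adjusted scale, above the acute controls; of the 4 Gly-Low libraries 2 lay above that range, 1 within it and 1 below it. Agrp overlaps Ctcf and Gm5914 in the annotation, and reads of overlapping genes cannot be told apart.

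Of the 26 tested genes of the arcuate feeding circuit, 14 fell and 1 rose, 8 and 1 of them in all 6 fits, with a median length-matched difference of -0.73 against -0.02 over all genes. Sv2c, a synaptic vesicle protein, fell from 74.8 ± 7.50 to 14.8 ± 3.93 CPM (SD, n = 5 and 4), a length-matched -1.58 ± 0.17. Mc3r, a melanocortin receptor, fell by 1.46 on the length-matched log2 scale, Npy2r, a receptor for neuropeptide Y, by 1.13, and Pam, the enzyme that amidates peptides, by 0.93. All 4 were called in all 6 fits, with and without the libraries rich in pituitary RNA, and their groups did not overlap. Npy, the partner of Agrp in the same neurons, did not follow it: the levels were 6.94 to 14.8 CPM in the controls and 4.68 to 31.5 CPM in the Gly-Low libraries, and the length-matched difference was -0.89 ± 0.37 (adjusted p = 0.0615). Lepr, the leptin receptor, and Ghsr, the ghrelin receptor, gave 0.21 (adjusted p = 0.492) and -0.37 (adjusted p = 0.26), and Mc4r gave -0.53 (adjusted p = 0.118). Ghsr stood at 9.64 CPM in Gly-Low 3, near the controls' 8.63 to 11.2, and at 3.28 to 4.17 CPM in the others. Ghrl, which encodes ghrelin, averaged 0.459 and 0.255 CPM in the groups.

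The restraining peptides differed in how far their values could be read. Pomc measured 35, 3200, 536, 266 and 294 CPM in the controls and 26.6 to 69.9 CPM in the Gly-Low libraries, and the groups overlapped. Its length-matched difference was -5.21 ± 0.98 with all libraries and -2.77 without controls 2, 3 and 5, where pituitary genes were high, and it lost its call in all 6 fits there. Cartpt, at 80.8 ± 23.5 CPM in the controls and 85.4 ± 16.1 CPM in the Gly-Low libraries, differed by 0.13 before matching and by -0.76 ± 0.18 after it (adjusted p = 0.00357). It was called in all 6 fits, in 7 of the 9 rounds that left out a library, and not without controls 2, 3 and 5.

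**Figure D3:**
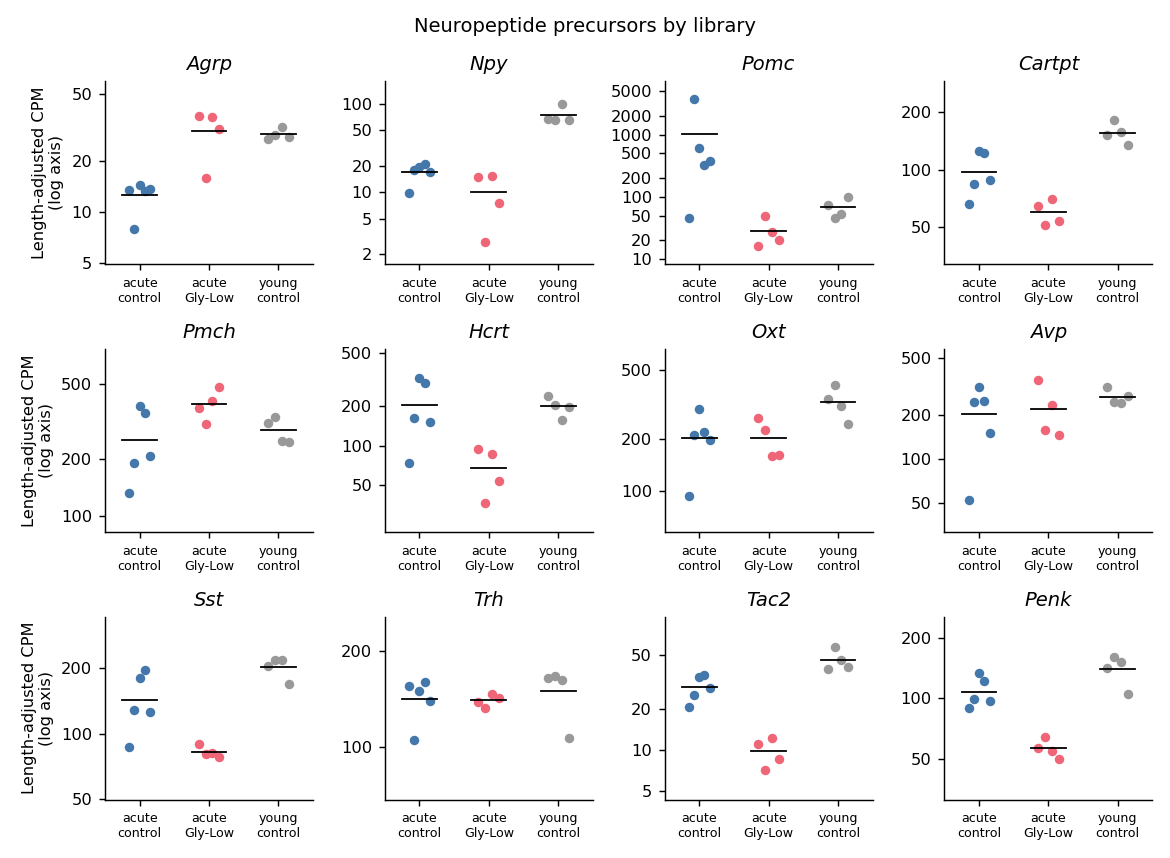
Each point is a library, with its length-adjusted CPM on a log axis for 12 neuropeptide genes in acute control (5), acute Gly-Low (4) and young control (4) libraries; lines mark means. Agrp of the Gly-Low libraries lies at 15.8 to 36.6, above the acute controls at 7.97 to 14.4, while Tac2 and Penk lie below both control groups and Oxt, Avp and Trh overlap the acute controls.

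Among 32 other hypothalamic neuropeptide genes, 15 were higher and 4 lower before matching, and 3 rose and 10 fell after it, 0 and 3 of them in all 6 fits (6 without control 1). The 3 were Tac2 (neurokinin B), Penk (enkephalins) and Pdyn (dynorphins), with length-matched differences of -1.65, -0.94 and -0.80. Tac2 measured 15, 20.9, 27.2, 27.1 and 20.8 CPM in the controls and 20.6, 11.4, 17.9 and 12.8 in the Gly-Low libraries. Its groups overlap on that scale and separate at 20.9 to 35.6 against 7.23 to 12.3 once the length trend is removed. Penk went from 97.8 ± 19.4 to 67.5 ± 9.38 CPM without overlap. As Penk is also a striatal gene, the other markers of striatum and cortex matter here: their summed level, Penk included, was 337 to 723 CPM in the controls and 217 to 268 CPM in the Gly-Low libraries, and 7 of 17 fell. That sum is not matched for length. The share of Penk that comes from neighbouring tissue was not tested.

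Pmch, Oxt and Avp had positive differences before matching and missed the threshold after it. Pmch rose in CPM from 194 ± 86.4 to 622 ± 110, an unmatched 1.74, but 144 of its 200 length neighbours had a smaller difference and the length-matched value was 0.54 ± 0.26 (adjusted p = 0.0946). Oxt (oxytocin) and Avp (vasopressin) went from 1.33 and 1.45 to -0.17 and -0.02 after matching, with adjusted p of 0.592 and 0.969. Trh gave -0.05 (adjusted p = 0.79). Hcrt, at 52 to 248 CPM in the controls and 63.8 to 201 in the Gly-Low libraries, fell by 1.74 ± 0.37 once compared with genes as short as itself, and Sst (somatostatin) by 0.87 ± 0.19. Neither was called in the slope fit, at adjusted p of 0.105 and 0.128.

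Of 33 receptors for peptides that set energy balance, 16 fell and 3 rose, with 7 and 1 in all 6 fits (8 and 0 without controls 2, 3 and 5) and a median of -0.81. Gpr83, a peptide receptor of feeding circuits, measured 35.6 to 46 CPM in the controls and 4.98 to 10.4 in the Gly-Low libraries, a length-matched -1.82 ± 0.19. Calcr, Oprm1, Galr1 and Npy5r were also lower in all 6 fits. Ramp1, which pairs with the calcitonin receptor and its relatives, was the exception: 56.3 to 79.9 CPM in the controls and 166 to 303 CPM in the Gly-Low libraries. Its length-matched difference was 0.67 ± 0.14. Ramp1 was called in all 6 fits in 3 of the 9 rounds that left out a library, and without controls 2, 3 and 5 its length-matched value was 0.51 (adjusted p = 0.051).

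Most genes of glycolysis fell. Of 25 tested genes for glucose uptake, glycolysis and lactate, 18 fell and 1 rose, and 8 fell in all 6 fits (7 or 8 when any 1 library was left out, 6 without controls 2, 3 and 5), with a median of -0.68. Eno1, an enolase of the lower part of the pathway (chromosome 4, 150236721 to 150248879), measured 731, 855, 943, 1040 and 890 CPM in the controls and 446, 410, 384 and 378 CPM in the Gly-Low libraries, which did not overlap. Its length-matched difference was -1.23 ± 0.13 (adjusted p = 6.98e-06). The neuronal enolase Eno2 fell from 700 ± 58.0 to 274 ± 40.4 CPM, the platelet-type phosphofructokinase Pfkp from 251 ± 11.1 to 92.5 ± 7.28 CPM, and the neuronal glucose transporter Slc2a3 from 138 ± 11.0 to 60.0 ± 10.9 CPM. Pkm (pyruvate kinase), Aldoa, Gpi1 and Pfkm complete the 8. Aldoa has more than 1 gene entry in the annotation, so its counts are uncertain.

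Other glycolytic genes did not give one answer. Hk1, the main brain hexokinase, had a length-matched difference of -1.996 and one of 0.23 in the slope fit (adjusted p = 0.737). Gapdh, which has many near-identical copies in the genome, ran from 4.03 to 137 CPM in the controls and from 2.31 to 37.2 CPM in the Gly-Low libraries. Its difference of -3.24 (adjusted p = 0.0146) lost the threshold without Gly-Low 2 (-2.88, adjusted p = 0.0503) or Gly-Low 4 (-2.94, adjusted p = 0.0543), and its counts are uncertain. Pgk1, phosphoglycerate kinase, gave 0.30 ± 0.14 (adjusted p = 0.087).

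The letters ACGTG are the core of the elements through which hypoxia-inducible factor and its relatives are known to bind glycolytic promoters. In the 250 bases before the gene start, on either strand, they occurred in 12 of 23 glycolysis genes with a promoter in the RefSeq table (52.2%) and in 18.5% of 27025 genes. Of the 12, 8 fell and 1 rose, 3 of them falling in all 6 fits (Pfkm, Aldoa and Pkm), while 7 of the 8 genes called in all 6 fits had a promoter in the table. Of the 11 without these letters, 9 fell and 0 rose, 4 of them falling in all 6 fits. Every full E-box CACGTG is counted in this search too, and a match is no proof of a site. The windows of 3 genes on the plus strand are shown to set the same letters, in capitals and also as their reverse complement CACGT, beside different responses. Pkm fell in all 6 fits (length-matched -0.95), Pgam1, a phosphoglycerate mutase, fell in the length-matched fit (-0.47) but not in all 6, and Pgk1 passed in neither direction. The windows are chr9:59657112-59657196 for Pkm, chr19:41911717-41911801 for Pgam1 and chrX:106186910-106187013 for Pgk1 (GRCm38.p6).
Pkm: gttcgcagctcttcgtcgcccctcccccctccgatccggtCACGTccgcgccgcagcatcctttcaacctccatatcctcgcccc
Pgam1: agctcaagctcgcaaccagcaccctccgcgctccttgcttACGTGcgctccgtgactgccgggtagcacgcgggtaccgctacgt
Pgk1: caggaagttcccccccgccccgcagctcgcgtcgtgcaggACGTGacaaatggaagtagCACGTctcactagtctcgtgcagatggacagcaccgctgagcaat

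Beyond glycolysis, lists of central metabolism had calls in both directions. Their counts stand beside the 23.8% of all genes that rose and the 23.8% that fell. In the citric acid cycle 9 of 22 genes rose (5 without controls 2, 3 and 5) and 7 fell, 1 (Sdhd) and 4 (Cs, Aco1, Ogdh and Mdh2) in all 6 fits, and the 4 became 1 without Gly-Low 3 or without Gly-Low 4 and 2 without control 2 or without control 4. Ogdh, part of the oxoglutarate dehydrogenase complex, fell by 0.94 and was not called in all 6 without controls 2, 3 and 5. Cholesterol synthesis genes fell in 10 of 27 and rose in 4. In all 6 fits 2 fell (3 without controls 2, 3 and 5), among them Dhcr7, which makes the last step to cholesterol. Of 31 genes of leptin and insulin signalling, 7 rose and 12 fell, with a median of -0.25. The slope fit turned this direction, with 9 of the 31 higher and 2 lower and a median of 0.40 against 0.16 over all genes. Grb10, an adaptor that dampens insulin receptor signalling, was the 1 called in all 6 fits, going from 261 ± 24.7 to 83.0 ± 8.54 CPM. Without controls 2, 3 and 5 that list had 1 that rose, 7 that fell and 3 that fell in all 6 fits; the latter were 2 without control 1, control 2, control 3 or Gly-Low 1. AMPK and fatty acid genes (27 tested) had 6 that rose (3 without controls 2, 3 and 5), 7 that fell and 0 called in all 6 fits, near the shares of all genes. The mTOR list (36 tested) had 7 that rose and 14 that fell, with Lamtor4 higher and Nprl2 and Nprl3 lower in all 6 fits. Without controls 2, 3 and 5, 9 fell, 4 of them in all 6. By the slope fit 8 of that list were higher and 6 lower.

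Genes that clear methylglyoxal showed few calls. Of 24 genes for methylglyoxal and aldehyde handling, 3 rose and 5 fell (6 and 8 without control 1, and 1 that fell without controls 2, 3 and 5), with a median of -0.00, and 1 was called in all 6 fits. Glo1, the glyoxalase that takes methylglyoxal, measured 189, 131, 133, 145 and 128 CPM in the controls and 250, 255, 261 and 282 CPM in the Gly-Low libraries, an unmatched difference of 0.89. Genes of its median length (1012.5 bases) differed by a median of 0.99, and the length-matched value was -0.01 ± 0.15 (adjusted p = 0.97). By its longest transcript (9865 bases) the value was 1.82 (adjusted p = 2.1e-06), so the result for Glo1 rests on the length assigned to it, and these counts do not show which transcript is expressed. Aldh1a1, an aldehyde dehydrogenase that also makes retinoic acid, was the 1 called in all 6 fits, at 91.3 to 141 CPM against 239 to 410 CPM, a length-matched 1.68 ± 0.19.

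More antioxidant genes rose than fell. Of 41 genes of glutathione, thioredoxin and NRF2 targets, 18 rose and 6 fell after matching (26 and 1 before), with a median of 0.30, and Gpx4, Gstm5, Mgst1, Prdx1 and Prdx4 rose in all 6 fits, also without controls 2, 3 and 5. Mgst1, a membrane-bound glutathione transferase, measured 24.2, 24.8, 22.2, 21.7 and 19.2 CPM in the controls and 135, 125, 95.9 and 121 CPM in the Gly-Low libraries, a length-matched 1.44 ± 0.11. Prdx1, a peroxiredoxin, went from 230 ± 21.6 to 839 ± 118 CPM, Prdx4 of the secretory pathway from 27.8 ± 3.46 to 89.98 ± 8.19 CPM, and Gpx4, which reduces lipid peroxides, from 264 ± 15.4 to 922 ± 226 CPM. In the slope fit the median of the list was 0.02 and 7 genes were higher and 4 lower. Of 36 genes of NAD, B vitamin and lipoate metabolism, 11 rose and 9 fell (7 and 4 without controls 2, 3 and 5). Nadk, which makes NADP, and the mitochondrial deacetylase Sirt3 were higher in all 6 fits with length-matched differences of 0.88 and 0.98, while Nmnat2 was lower; neither of the higher genes kept that call without Gly-Low 2 or without Gly-Low 4, and Nmnat2 lost it without control 3, control 4, Gly-Low 1 or Gly-Low 3.

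In the endoplasmic reticulum, 8 of 25 chaperone and unfolded-protein genes fell and 4 rose, and in the slope fit 11 were lower and 0 higher. Calr (calreticulin, a lectin chaperone), Asns (asparagine synthetase) and Herpud1 fell in all 6 fits. Calr measured 251, 383, 337, 334 and 344 CPM in the controls and 169, 172, 142 and 119 CPM in the Gly-Low libraries, a length-matched -1.12 ± 0.15, and Asns went from 134 ± 27.5 to 66.4 ± 8.93 CPM. The main stress-induced chaperone, Hspa5 (BiP), went from 629 ± 84.4 to 438 ± 21.2 CPM, with a length-matched -0.18 (adjusted p = 0.359) and -0.93 in the slope fit (adjusted p = 0.00832). Hsp90b1 and Pdia6 gave 0.22 and -0.06, neither past the threshold.

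The ER stress response element, CCAAT followed by 9 bases of any kind and CCACG, is the sequence through which ATF6 is known to switch on these chaperones. On either strand of the 250 bases before the start it occurred in 7 of 22 genes of the list with a promoter in the table (31.8%) and in 35 of 27025 genes (0.13%). The 7 did not move as one: Calr fell in all 6 fits, Dnajc3 rose in the length-matched fit, and Hspa5, Hsp90b1, Canx, Pdia6 and Creld2 passed in neither direction in that fit. The windows of 4 of them show the same element, in capitals, beside different responses. They are chr8:84847035-84847133 on the minus strand for Calr, chr2:34771985-34772083 on the plus strand for Hspa5, chr10:86705493-86705694 on the minus strand for Hsp90b1, with 2 matches, and chr12:17266451-17266549 on the plus strand for Pdia6 (GRCm38.p6), each written 5′ to 3′ in the direction of its gene. In Calr and in the match of Hsp90b1 nearer the gene the element lies on the other strand.
Calr: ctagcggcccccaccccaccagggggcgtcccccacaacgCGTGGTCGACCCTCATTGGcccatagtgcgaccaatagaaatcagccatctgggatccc
Hspa5: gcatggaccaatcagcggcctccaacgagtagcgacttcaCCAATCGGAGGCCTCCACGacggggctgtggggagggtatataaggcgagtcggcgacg
Hsp90b1: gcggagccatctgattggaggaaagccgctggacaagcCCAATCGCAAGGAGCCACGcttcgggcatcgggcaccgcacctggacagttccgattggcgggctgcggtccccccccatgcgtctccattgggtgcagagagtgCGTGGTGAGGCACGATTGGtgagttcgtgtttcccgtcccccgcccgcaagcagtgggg
Pdia6: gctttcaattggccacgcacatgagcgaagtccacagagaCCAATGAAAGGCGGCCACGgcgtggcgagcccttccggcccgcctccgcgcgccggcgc

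Of 22 genes in a list of glucocorticoid receptor and target genes, 9 rose and 2 fell, with a median of 0.55, and in the slope fit 5 were higher and 0 lower. Fkbp5, a co-chaperone that glucocorticoids induce and that dampens their receptor (chromosome 17, 28399094 to 28517527), measured 18.2, 48.9, 31.5, 16.7 and 32.8 CPM in the controls and 60.8, 54.6, 64.6 and 80.8 CPM in the Gly-Low libraries. The groups did not overlap, and control 2 lay just under Gly-Low 2. Its length-matched difference was 1.58 ± 0.25 (adjusted p = 0.000118), and all 4 young controls, at 9.92 to 25.8 CPM, lay below the Gly-Low libraries. Tsc22d3 (GILZ), another glucocorticoid target, went from 80.1 to 132 CPM in the controls to 298 to 349 CPM, a length-matched 1.17 ± 0.17. Both were called in all 6 fits, also without controls 2, 3 and 5, but Tsc22d3 was not called in all 6 without Gly-Low 3. Hormone levels were not measured, and handling and time of day are not in the labels used here.

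The cold-inducible RNA-binding protein Rbm3 was among the clearest rises, with 70.9, 79.8, 74.3, 63.8 and 62.9 CPM in the controls and 315, 324, 286 and 304 CPM in the Gly-Low libraries. Its length-matched difference was 1.45 ± 0.12 (adjusted p = 9.98e-07) and it was called in all 6 fits, also without controls 2, 3 and 5. The antisense gene Rbm3os overlaps it. The other 3 of the 4 cold-inducible genes fell in the length-matched fit, none in all 6 fits. Heat shock chaperones rose in 8 of 27 and fell in 8 (4 without controls 2, 3 and 5), not far from the 23.8% of all genes in each direction. In all 6 fits 1 rose and 1 fell, and 0 did either without controls 2, 3 and 5. Dnaja1, an HSP40 co-chaperone, rose by 1.57 and gave 0.26 in the slope fit (adjusted p = 0.483). Of 21 clock genes 6 rose and 7 fell (4 without controls 2, 3 and 5). Bhlhe40, a repressor of the clock, was the 1 called in all 6 fits, at -1.48, and it lost that call without Gly-Low 3 and without controls 2, 3 and 5.

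Most ribosomal protein and respiratory chain genes rose. The ribosomal share given above is a sum over the same cytosolic ribosomal protein genes, and the mitochondrial share includes the mitochondrial genome proteins counted below, so those shares are no separate observation. Of 81 cytosolic ribosomal protein genes, 71 rose and 0 fell, with a median of 1.00 after matching against 2.18 before, and 30 rose in all 6 fits (24 to 37 with 1 library left out, 28 without controls 2, 3 and 5). The slope fit had 31 higher and 0 lower, with a median of 0.57 against 0.16 over all genes. Rpl5, a protein of the large subunit, measured 271 to 426 CPM in the controls and 914 to 1400 CPM in the Gly-Low libraries, a length-matched 1.77 ± 0.17. Rps20 had the largest length-matched rise of the list among the genes named here, 2.71 ± 0.20. That value used an annotated length of 3706 bases; by its coding length of 357 bases it was 1.01, and in the slope fit 0.59 (adjusted p = 0.0526). Ribosomal protein genes have many near-identical copies, so their counts are uncertain.

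Of 77 mitochondrial ribosomal protein genes 46 rose and 8 fell, 15 and 4 in all 6 fits (10 and 3 without controls 2, 3 and 5). The slope fit had 15 of them higher and 5 lower, with a median of 0.02, below the 0.16 of all genes. Mrps14 rose by 1.57 and Mrpl47 by 1.94, while Mrps18b fell by 1.28, each in all 6 fits, Mrpl47 in only 2 of the 9 rounds that left out a library. Nuclear-encoded respiratory chain genes rose in 52 of 78 and fell in 6, with 20 and 0 in all 6 fits (14 to 21 with 1 library left out, 16 without controls 2, 3 and 5). By the slope fit 20 were higher and 5 lower, with a median of 0.15, near the 0.16 of all genes. Ndufs4, a subunit of complex I, went from 51.3 ± 5.20 to 216 ± 49.4 CPM and Cox7b of complex IV from 74.0 ± 4.38 to 442 ± 175 CPM, with length-matched differences of 1.82 and 1.67. Cycs (cytochrome c) rose by 2.20 by its median transcript and by 0.54 by its coding length, and its call in all 6 fits stood in 4 of the 9 rounds that left out a library and not without controls 2, 3 and 5. The 13 proteins of the mitochondrial genome rose in 12 cases, led by mt-Nd4 with 3880 to 6280 CPM in the controls and 14600 to 24300 CPM in the Gly-Low libraries. In the slope fit mt-Nd4 gave 0.11 (adjusted p = 0.861), and none of the 13 was called in all 6 fits (1 without control 5).

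Genes of protein turnover and RNA processing moved in both directions. Of 41 proteasome genes 21 rose (11 without controls 2, 3 and 5) and 5 fell. By the slope fit 9 were higher and 4 lower, with a median of 0.16, near that of all genes. In all 6 fits 9 rose, which became 5 without Gly-Low 2, without Gly-Low 4 or without controls 2, 3 and 5. Psma2 of the core particle rose by 1.94 and Psmc6 of the regulatory particle by 1.76. Translation factors rose in 20 of 37 and fell in 9, with 5 and 2 in all 6 fits; the 5 became 11 without control 1 and 3 without control 2, control 4, Gly-Low 2, Gly-Low 4 or controls 2, 3 and 5, and the 2 became 1 without control 2, control 4, Gly-Low 1, Gly-Low 2 or Gly-Low 4. Eif3e and Eif2s2, subunits of initiation factors, rose by 1.58 and 1.70 in all 6 fits (Eif2s2 not without controls 2, 3 and 5), while Eif3a and Eif3c of the same complex as Eif3e fell in all 6. In the spliceosome 22 of 59 rose and 24 fell. Snrpb2, a protein of the U2 particle, rose (1.69), and the helicase Snrnp200, the core scaffold Prpf8 and the intron-binding Aqr fell (-1.60, -1.97 and -1.35), Snrnp200 from 193 ± 22.5 to 34.5 ± 2.92 CPM. All 4 were called in all 6 fits, Prpf8 not without controls 2, 3 and 5.

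Neuronal activity genes were lower in the length-matched fit and not in the fit with the library slope. Of 25 immediate early genes, which neurons switch on within minutes of firing, 15 fell (4 without controls 2, 3 and 5) and 1 rose, with a median of -1.16. Fos measured 9.47, 38, 47.1, 40.8 and 25.7 CPM in the controls and 8.35, 8.93, 2.78 and 7.84 CPM in the Gly-Low libraries. The groups did not overlap, but control 1 lay just above Gly-Low 2. The length-matched difference of Fos was -2.23 ± 0.40, and in the slope fit it was -1.45 (adjusted p = 0.155). Nptx2, a synaptic protein induced by activity, fell by 2.07 and gave -0.41 in the slope fit, and Dusp1 fell by 1.16 and gave -0.73. In that fit the median of the list was 0.12, 1 gene was higher, 0 lower, and none was called in all 6 fits (1 without control 1).

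**Figure D4:**
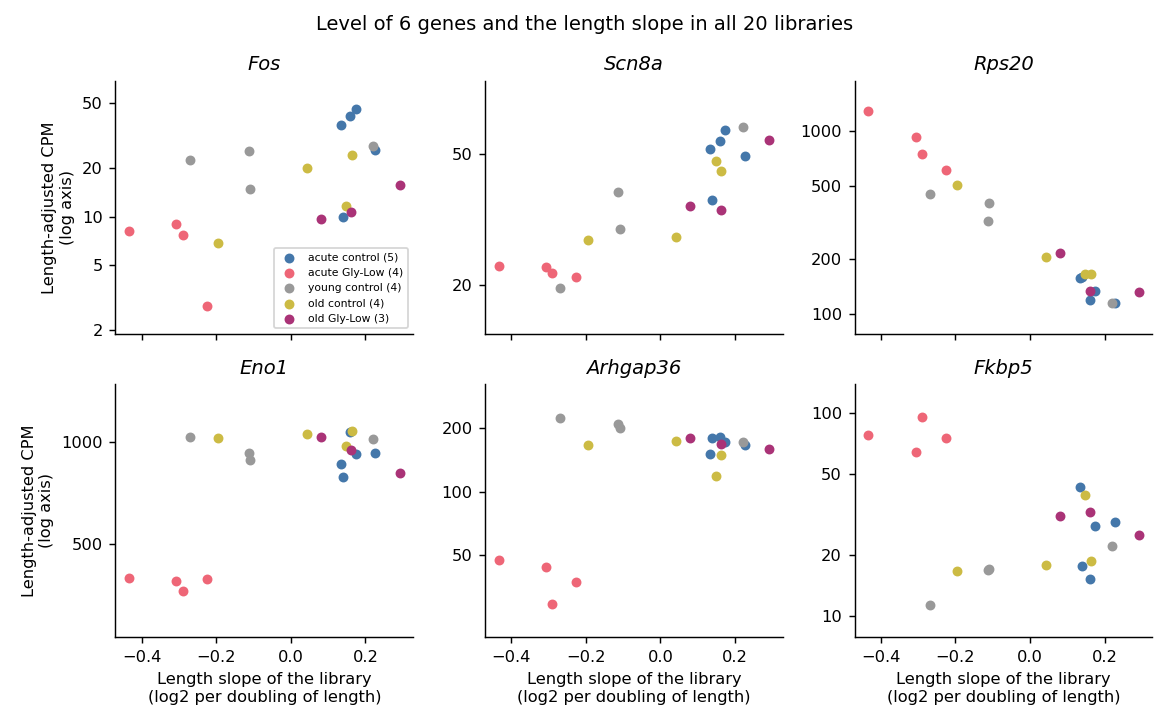
Each point is 1 of the 20 libraries, with its length slope (log2 per doubling of length) on the horizontal axis and the length-adjusted CPM of a gene on a log axis, coloured by group. Scn8a and Rps20 vary with the slope across all groups, while Eno1, Arhgap36 and Fkbp5 of the 4 Gly-Low libraries stand apart from young control 2 (slope -0.269) and old control 3 (slope -0.195); Fos is mixed.

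Many genes of ion channels, receptors and synaptic vesicles fell. Of 45 voltage-gated channel genes, 29 fell and 2 rose, with a median of -0.63; in the slope fit 13 were lower and 6 higher, with a median of 0.03. Scn8a, a sodium channel of axon initial segments, measured 38, 63.1, 77, 65.1 and 67.5 CPM in the controls and 12.8 to 14.9 CPM in the Gly-Low libraries, and it measured 11.8 CPM in young control 2. Its length-matched -1.23 stands beside 0.21 in the slope fit. Channels that fell in all 6 fits numbered 5, but 1 without Gly-Low 4, 2 without control 4, 3 without Gly-Low 1 and 8 without controls 2, 3 and 5. They included Cacna2d3 (-1.39) and Kcnma1 (-1.08), both called without those 3 controls too. Of 38 GABA and glutamate receptor genes 17 fell and 3 rose, and in the slope fit 11 were lower and 2 higher, with 5 falling in all 6 fits, 3 without Gly-Low 3 or without Gly-Low 4 and 9 without controls 2, 3 and 5. Grin2b, an NMDA receptor subunit, fell from 109 ± 18.1 to 14.5 ± 4.28 CPM, a length-matched -1.99. Gabrg1, a GABA-A receptor subunit, rose by 1.98, from 173 ± 47.1 to 423 ± 86.6 CPM, with 0.55 in the slope fit (adjusted p = 0.264).

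Synaptic vesicle and release genes fell in 22 of 37 and rose in 4, with 6 falling in all 6 fits (4 without controls 2, 3 and 5) and, in the slope fit, 10 lower and 1 higher. Among them Rab3b, a GTPase of vesicle release, fell by 1.53, and it was not called in all 6 without those controls. Slc32a1, the vesicular GABA transporter, had a length-matched -1.70 and 0.43 in the slope fit (adjusted p = 0.467). Clustered protocadherins, the cell-surface proteins that give neurons an identity, fell in 37 of 54 and rose in 0. In all 6 fits 14 fell, 9 without control 2, control 4 or Gly-Low 4, and 6 without controls 2, 3 and 5. Pcdhgc4 went from 28.6 ± 2.97 to 3.93 ± 0.487 CPM, a length-matched -2.40 ± 0.15. It overlaps 25 other genes of the annotation, mostly gamma protocadherins that share its 3′ exons, so reads cannot be assigned to it alone.

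Markers of cell types had calls in several directions, to be set beside the 23.8% of all genes that rose and the 23.8% that fell. For calls in all 6 fits those shares were 3.44% and 4.05%. Sums of CPM in this paragraph and the next are not matched for length. Of 22 endothelial markers 10 fell and 2 rose, and Pecam1, Tek, Adgrl4, Adgrf5 and Emcn fell in all 6 fits (3 genes without Gly-Low 4, 4 without controls 2, 3 and 5). Adgrf5, an adhesion receptor of capillaries, measured 36.7 to 48.5 CPM in the controls and 5.04 to 7.53 CPM in the Gly-Low libraries, a length-matched -1.83 ± 0.17, and the adhesion molecule Pecam1 went from 18.6 ± 1.39 to 4.41 ± 1.24 CPM. The summed endothelial list ran from 412 to 553 CPM in the controls and from 361 to 412 CPM in the Gly-Low libraries. Meningeal and fibroblast markers went the other way, with 15 of 20 rising and 1 falling and a sum of 760 to 1940 CPM against 2300 to 6180 CPM. Young control 3, on control diet, had a sum of 4440 CPM, within the Gly-Low range, and the other young controls 865 to 2040 CPM. Crabp2, a retinoic acid carrier of the meninges, rose from 2.97 ± 1.19 to 26.9 ± 10.8 CPM (length-matched 2.20, slope fit adjusted p = 0.0909), and 2 genes of that list, Col1a2 and Igfbp2, rose in all 6 fits (1 without control 2). Slc22a8, a transporter of the blood-brain barrier and choroid plexus, rose by 1.54, with 0.59 in the slope fit. Of 15 choroid plexus and ependyma markers 5 rose and 1 fell, and their sum was 143 to 181 CPM against 190 to 291 CPM. The part of meningeal RNA in the gene results was not tested.

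Border macrophage and leukocyte markers rose in 7 of 17 with 0 falling, and microglial markers in 8 of 22 (4 without controls 2, 3 and 5) with 2 falling. F13a1, a macrophage gene, measured 2.11 to 3.56 CPM in the controls and 8.83 to 17.1 CPM in the Gly-Low libraries, a length-matched 2.59 ± 0.28. Mrc1 of the same cells rose by 1.88 with 0.33 in the slope fit, and the microglial receptor Siglech rose by 1.13. F13a1 and Siglech were called in all 6 fits but not without controls 2, 3 and 5, F13a1 also not without Gly-Low 4 and Siglech not without Gly-Low 3 or Gly-Low 4. Of 7 erythrocyte markers 3 rose, and their sum was 233 to 472 CPM against 849 to 1820 CPM. These markers are short, with a median of 703 bases, and their median difference was 1.49 before matching and 0.84 after it. Astrocyte markers fell in 9 of 19 and rose in 3. Slc6a11, the astrocytic GABA transporter, and Clu (clusterin) fell by 0.95 and 0.97, and S100b rose from 123 to 222 CPM in the controls to 552 to 864 CPM, a length-matched 1.63, called in all 6 fits but not without controls 2, 3 and 5. Gfap, the filament of reactive astrocytes, gave 0.61 ± 0.26 (adjusted p = 0.0663) and 2.98 in the slope fit (adjusted p = 0.00146). Of 24 oligodendrocyte markers 5 rose and 8 fell. Bmp4, which young oligodendrocytes express, was the 1 called in all 6 fits, at 1.71 to 4.03 CPM against 7.98 to 14.7 CPM and a length-matched 1.94. Mural cell markers rose in 1 of 15 and fell in 3, and tanycyte markers rose in 4 of 18 and fell in 5. The tanycyte shares lie near the 23.8% of all genes that rose and the 23.8% that fell, and those of oligodendrocyte markers not far from them.

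Markers of single hypothalamic nuclei and of the pituitary were counted as well. In the ventromedial nucleus 7 of 14 fell and 2 rose, and the sum was 468 to 635 CPM in the controls and 249 to 332 CPM in the Gly-Low libraries. Fezf1, a transcription factor of that nucleus, fell by 1.19 in all 6 fits, also without any 1 library and without controls 2, 3 and 5. Esr1, the other gene so called, was not called without control 2, control 5, Gly-Low 1, Gly-Low 3, Gly-Low 4 or controls 2, 3 and 5. Markers of the suprachiasmatic nucleus rose in 3 of 14 (1 without Gly-Low 3, Gly-Low 4 or controls 2, 3 and 5) and fell in 3. Those shares lie near the 23.8% of all genes that rose and the 23.8% that fell. In all 6 fits 0 were called, though 1 rose without Gly-Low 3 and 1 fell without control 1 or control 3. The sum was 252 to 441 CPM against 445 to 907 CPM, and neither this sum nor the one above is matched for length. Pituitary markers fell in 11 of 13, and in 4 without controls 2, 3 and 5. Pou1f1, the transcription factor that defines several pituitary cell types, was at 0 in all 4 Gly-Low libraries and at 47.9 CPM in control 2. Prl (prolactin) was 0.985 CPM in control 1 and 8680 CPM in control 2, and its -8.63 became -1.71 (adjusted p = 0.121) without controls 2, 3 and 5. Where the tissue was cut was not tested as a source of these differences.

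The genes with the smallest length-matched p among those past both fits show what stood out most from genes of their own length. Arhgap36, which raises hedgehog signalling by blocking protein kinase A and marks hypothalamic neurons (chromosome X, 49463945 to 49500244), measured 181, 162, 190, 192 and 180 CPM in the controls and 40, 37.9, 34.9 and 26 CPM in the Gly-Low libraries. Its length-matched difference was -2.12 ± 0.15 and that of the slope fit -2.58 (adjusted p = 2.9e-07). The 11 libraries outside this comparison held 129 to 212 CPM, so the 4 Gly-Low libraries were lower than the other 16. The cadherin Cdh13 fell from 165 ± 17.5 to 28.1 ± 6.79 CPM, the calcium pump Atp2b3 from 77.2 ± 9.18 to 10.4 ± 2.74 CPM and Lgi3, a secreted neuronal protein, from 130 ± 17.9 to 37.4 ± 1.43 CPM. Ly6e (-1.93), the astrocytic amino acid transporter Slc7a10 (-1.76), Cdipt (-1.97) and Tecr (-1.93) complete, with Pcdhgc4 and the chemokine Cx3cl1, the 10 that fell. All but Cx3cl1 were called in all 6 fits, also without controls 2, 3 and 5. Cx3cl1 went from -3.56 to -0.68 in the slope fit (adjusted p = 0.195). Its -3.56 used a median length of 470 bases, below its coding length of 1185 bases, though it also fell by its longest, merged and coding lengths.

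On the other side the 10 were Pdcl3, Tceal8, Rin2, Ska2, Rps20, Cbr4, Naca, Mtx2, Nsa2 and Mrpl47. Rin2, a regulator of endocytosis, measured 39.99 ± 2.80 CPM in the controls and 80.2 ± 11.9 in the Gly-Low libraries, while 194 of its 200 length neighbours had a smaller difference than its 1.05. Naca, which binds new peptides at the ribosome, rose from 250 ± 33.3 to 905 ± 130 CPM, and Tceal8 from 45.8 ± 8.72 to 199 ± 19.4 CPM. Pdcl3, a chaperone-like protein, had a length-matched 2.22 but 0.53 in the slope fit (adjusted p = 0.0512), and Rps20 also missed that fit. The other 8 were called in all 6 fits, of which Ska2, Mtx2 and Mrpl47 were not without controls 2, 3 and 5.

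Genes that moved against the trend differed in the direction opposite to the median of their length class. That class rests on the length assigned to a gene. In the shortest of the 5 length classes, of 3431 genes, 143 fell in both fits (4.17%), and in the longest, also of 3431 genes, 239 rose in both (6.97%). Without controls 2, 3 and 5 the counts were 60 and 124, and with the slope fit they were 29 and 29. Among the 6 short genes with the smallest p before matching, Tecr, which completes the synthesis of very long fatty acids (chromosome 8, 83571698 to 83607971), measured 377, 486, 540, 571 and 505 CPM in the controls and 250, 222, 208 and 196 CPM in the Gly-Low libraries, where its length neighbours were higher by a median of 0.80. Cdipt, the phosphatidylinositol synthase, went from 142 ± 12.3 to 72.5 ± 5.75 CPM. Slc7a10 is the third of the 6 that was called in all 6 fits, while Cx3cl1, the chemokine receptor Ackr1 (-3.15) and the histamine receptor Hrh3 (-2.54) were not. Hrh3 gave 0.27 in the slope fit (adjusted p = 0.79). Cdipt, Ackr1 and Cx3cl1 were not in the shortest class by the median, the longest and the coding length together. For Cx3cl1 the median length of 470 bases lies below its coding length of 1185 bases and its longest transcript of 3315 bases. Ackr1 overlaps Cadm3 in the annotation, so its reads cannot all be told apart.

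At the long end the 6, ranked the same way, were Cbr4, Rp2, Tmem167, Mrps25, Ddx3y and Sdhaf3. Cbr4, a mitochondrial reductase of fatty acid synthesis, measured 14.2, 15.8, 12.3, 11.9 and 12.9 CPM in the controls and 40.6, 33.6, 37.5 and 43.3 CPM in the Gly-Low libraries, with all 200 length neighbours below its difference of 1.57. Cbr4 and Ddx3y, an RNA helicase of the Y chromosome, were called in all 6 fits, the latter not without controls 2, 3 and 5. Several of the 6 are long mainly outside the coding part: by coding length Tmem167 gave -0.06 (adjusted p = 0.772) and Sdhaf3 0.12 (adjusted p = 0.525), and Mrps25 gave 0.39 in place of 1.98.

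Asking, after the values were seen, for the same extreme class of the 5 by the median, the longest and the coding length left 20 short genes that fell and 39 long genes that rose. Pomc and the pituitary genes Cga, Gh, Lhb and Prl are among the 20. Caly, a vesicular protein of neurons, measured 182 to 259 CPM in the controls and 112 to 128 CPM in the Gly-Low libraries, Arl10 77.8 ± 6.63 and 53.2 ± 4.63 CPM, and Rtl8b 77.1 ± 10.6 and 42.5 ± 2.13 CPM. These 3 were called in all 6 fits, also without controls 2, 3 and 5. Of the long genes, Kif5b, the heavy chain of kinesin-1 that carries cargo along axons, measured 551, 393, 403, 476 and 425 CPM in the controls and 839, 751, 900 and 1070 CPM in the Gly-Low libraries, a length-matched 1.78 ± 0.17. The young controls, 3 of which had a negative slope, held 259 to 362 CPM. The zinc finger gene Zfp729a (2.06), the synaptic scaffold Shank1 (1.52) and Hr, a corepressor of nuclear receptors (1.59), also rose in all 6 fits, with and without controls 2, 3 and 5.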

How the data were processed

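The deposited table held whole-number read counts per gene, which the authors made without normalization. Per the submitters' processing notes, the tools were DESeq2 1.20.0, featureCounts 1.5.0-p3 and HISAT2 2.0.5, and the build GRCm38; how each tool was used, and with which annotation and strand option, is not given in the sources used here. Of 54532 genes, 54495 were found in the annotation, from which symbols, positions and lengths were taken. The members, gene lists and tests were chosen with earlier results of these data known, so no list or pattern is independent support.

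Genes with low counts were removed by filterByExpr, libraries scaled by TMM, and the 9 libraries fitted with edgeR 4.0.16 in R 4.3.3 by its quasi-likelihood F test, with Benjamini-Hochberg adjustment over all genes tested calling genes under 0.05 whatever their fold. Every adjusted p for a gene is from that test. The length-matched fit added to each library an offset from its trend over log2 transcript length (medians of 40 bins; the median length of a gene's transcripts), computed on log2 CPM (prior count 2). The other fits used the longest, merged or coding length, a length and GC trend, or every library's slope on length as a term over all 5 groups; the coding length and the requirement of all 6 fits were added after the data were seen, and genes with no coding length skip that fit. Printed CPM are scaled by TMM over all 20 libraries, and length-adjusted CPM have the 20-library trend removed. No library shared identical counts with another.

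Protein-coding genes were named by rule: the 10 smallest length-matched p in each direction among genes past both fits with a mean of at least 5 CPM; the 6 smallest p before matching at each end against the trend; 16 genes fixed by name; and at most 4 of each list by smallest p. Other named genes, among them Ramp1, Npy2r, Slc2a3, Gapdh, Hk1, Gabrg1, Mrps18b, the genes with printed promoters or their motifs, members listed only as called in all 6 fits, and those short or long by 3 measures, were chosen after their values were seen. A few genes that the rule names are not reported here. For promoters, 8 motifs were searched in the RefSeq table. Only the fit without matching and the fit matched on median length were run on simulated data. The other fits that take length into account and the call in all 6 were not. Alternatives were DESeq2 1.42.0, its size factors, no filter, CPM of at least 1 in 4 libraries, voom with quality weights (limma 3.58.1), all 20 libraries, a replicate block, 1 surrogate variable (sva 3.50.0), other length settings and leaving out libraries.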

Additional observations from a re-analysis of the deposited data

Results flagged for a closer look

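Of 260 sets of values, most held the CPM of 1 gene in 1 group. The others held total counts, length slope, mitochondrial share or ribosomal share in 1 group. In 17 sets, all of gene CPM, the highest or lowest library lay far from the rest of its group, where chance gives about 1 in 20 sets. The test was not applied between groups, and none of these libraries was removed. Acute control 1 accounts for 10 of the 17: it was highest for Glo1 (189 CPM, the others 128 to 145), Npy2r (61.5, the others 29.4 to 37.9), Psma2 (176, the others 114 to 130), Eif3e (180, the others 106 to 124), Eif2s2 (136, the others 87.6 to 93.3), Snrpb2 (43.2, the others 31.6 to 34.6), Naca (308, the others 229 to 250) and Ddx3y (187, the others 124 to 142), and lowest for Prpf8 (137, the others 250 to 275) and Bhlhe40 (37.7, the others 53.4 to 58.7). For 9 of those 10 genes, all but Npy2r, it lay nearer to the Gly-Low libraries than the other controls did; its mitochondrial share of 9.11% was also the highest of the controls, and no cause was tested.

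The other flags were single values. Pomc reached 3200 CPM in acute control 2 (the others 35 to 536), the library with the most pituitary RNA. Ghsr stood at 9.64 CPM in Gly-Low 3 (the others 3.28 to 4.17) and Gapdh at 37.2 CPM in Gly-Low 1 (the others 2.31 to 3.89). Pkm was 815 CPM in Gly-Low 2 (the others 669 to 693), Pgk1 was 498 CPM in Gly-Low 1 (the others 590 to 602), Pgam1 was 271 CPM in control 5 (the others 313 to 328), and Ska2 was 13.2 CPM in control 5 (the others 15.7 to 16.6).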

How the results depend on the processing

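Across the alternatives other than the slope fit and the loss of controls 2, 3 and 5, the counts of 10005 genes without matching and 8176 with it stayed between 8583 and 11183 and between 6544 and 9856. Of 111 called genes named in the text, 83 kept their direction and call under every alternative run, 23 lost the call under at least 1 and 6 changed sign under at least 1. Depth was similar in the groups and limits mainly genes at a few CPM. Without controls 2, 3 and 5, which leaves 2 controls, 5192 length-matched genes passed (2630 rose, 2562 fell), and 1112 in all 6 fits, of which 879 are among the 1285. The genes against the trend then numbered 184 (124 long, 60 short), also with Lepr at -0.10, Avp at 0.43 and Oxt at 0.20. In the slope fit 3789 passed (2127 rose, 1662 fell), 58 of them against the trend (29 at each end). Without the low-count filter 416 long genes rose in both fits, and by coding length 106. Leaving out 1 library gave 391 to 740 genes that rose in all 6 fits, the lowest without Gly-Low 4, 7104 to 9533 length-matched genes and 317 to 486 genes against the trend. Of genes named as called in all 6 fits, Ogdh kept that call in 4 of 9 rounds that left out a library, Eif2s2 and Mtx2 in 5, Ddx3y and Nadk in 6, Prdx4, Rab3b, Sirt3 and Ska2 in 7, and Cacna2d3, Nsa2, Prpf8 and Tsc22d3 in 8. Smaller counts of gene groups also moved: without control 1, 8 receptors for GABA and glutamate rose in place of 3 (1 without controls 2, 3 and 5), and 5 erythrocyte markers in place of 3, as without Gly-Low 1. Without Gly-Low 3, 4 leptin and insulin genes rose in place of 7, and without Gly-Low 3 or 4, 5 heat shock genes fell in place of 8. Without Gly-Low 1 or 2, 9 mTOR genes fell in place of 14. Without controls 2, 3 and 5, 3 respiratory chain genes fell in place of 6, 3 tanycyte markers fell and 3 oligodendrocyte markers rose in place of 5, 1 astrocyte marker rose in place of 3, 1 cholesterol gene in place of 4, and 0 endothelial markers in place of 2. The cause of these changes was not tested, beyond the smaller number of samples.

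Sign changes of single genes were as follows, as length-matched log2 differences. The slope fit gave Avp 1.08, Ghrl 3.01, Glo1 0.082, Hk1 0.23, Hrh3 0.27, Hsp90b1 -0.24, Lepr -0.66, Oxt 0.24, Pgk1 -0.064, Scn8a 0.21 and Slc32a1 0.43. Coding length gave Avp 0.57, Glo1 0.13, Oxt 0.086, Pdia6 0.16 and Tmem167 -0.058. The length and GC trend gave Avp 0.44, Hsp90b1 -0.11, Oxt 0.29, Pmch -0.083 and Trh 0.25. No filter gave Avp 1.33, Glo1 0.71, Npy 0.45, Oxt 1.19, Pdia6 0.001, Sst 0.19 and Trh 0.27. The merged length gave Avp 0.079 and Glo1 1.57, the longest transcript Glo1 1.82, and 20 bins Avp 0.057 and Glo1 0.00. A fit on all 20 libraries gave Avp 0.13, Glo1 0.072 and Oxt 0.00, and 1 surrogate variable Avp 0.36 and Oxt 0.038. With limma-voom, Glo1 gave 0.14 and Pdia6 0.013, and, without matching, Cartpt -0.051 and Npy -0.17. With 1 library left out, Avp ran from -0.30 to 0.15, Glo1 from -0.089 to 0.115, Pdia6 from -0.154 to 0.021 and Trh from -0.17 to 0.003.

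The groups share replicate numbers, which are not said to pair samples. With the length trend removed, same-numbered libraries had correlations of -0.05 to 0.009 in their deviations, and 0 of 4 correlated best with its own number. So few libraries cannot settle whether the numbers pair samples. A fit with the replicate number as a block called 8583 genes, and 6544 after length matching.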
